A study of Mus musculus with 2 samples.

Results

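Cytosolic ribosomal protein genes were taken as all genes with a probe set of a single gene symbol that begins with Rpl or Rps followed by a digit, leaving out the S6 kinase genes (Rps6k) and symbols of pseudogenes. The rule found 47 genes among 18193 genes with such a probe set, 24 with a large subunit (Rpl) symbol, 22 with a small subunit (Rps) symbol, and Rps19bp1, which encodes a binding partner of a ribosomal protein and is no subunit. Of the 46 others, 40 are structural subunits and 6 are paralogs of a subunit gene. Together they had 102 probe sets. The 47 genes lie on 17 chromosomes, and Rpl7 and Rpl37a lie on chromosome 1.

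The 2 groups, each 1 Affymetrix array of liver RNA, were Bglu3 congenic mice and C57BL/6 apoE-/- mice as the control. Both are described as hyperglycemic, and both carry the C57BL/6 strain label. Both were weaned at 3 weeks of age and ate a Western diet for 12 weeks from 6 weeks of age. Bglu3 names a locus on mouse chromosome 1 that affects blood glucose. In a congenic strain, a piece of chromosome from a donor strain has been bred onto the background of another. The labels do not state the apoE genotype of the congenic mice, the donor strain, the ends of its piece of chromosome and the number of mice behind each array. With 1 array per group there were no replicates, so each difference describes these 2 arrays and has no test.

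A cytosolic ribosome joins a small subunit, which binds the mRNA and reads its codons, to a large subunit, which forms peptide bonds and releases the chain through an exit tunnel. Each structural protein is present about once per ribosome, and their genes are transcribed together at high levels in growing and secretory cells such as hepatocytes. Their mRNAs begin with a terminal oligopyrimidine (TOP) tract, a C followed by an unbroken run of pyrimidines, through which the kinase mTOR and the protein Larp1 control their translation.

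Ribosomal protein transcripts were slightly and almost uniformly higher in the congenic array. Differences are log2(intensity + 5) of the congenic minus the control array, with each gene read from its brightest probe set. Of the 47 genes, 44 were expressed, meaning that this probe set reached the median of its array on at least 1 array, and all 44 reached it on both. Their median difference was 0.12, a fold of 1.09, and 41 of the 44 were higher in the congenic array. Across all 12613 expressed genes the median was 0.04 and 56.1% were higher. No ribosomal protein gene was higher by 1.5-fold or more, a size that 7.59% of expressed genes reached, and 1, Rpl27a, was lower by that much, against 5.26% of expressed genes. Most members are bright, and differences of this size were rarer among bright genes. Of 1355 other expressed genes with a mean intensity of at least 1000, 43 were higher and 27 lower by that much. None of the 34 members of this brightness was, so their small differences are not particular to them.

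The promoters of the members at both ends of the range are shown first, because the pyrimidine tract at the start site is what these genes are known to share. They are the 3 highest and the 3 lowest structural members with a mean intensity of at least 1000 and a promoter sequence that can be shown, followed by Rpl27a, the 1 member past 1.5-fold. Rps14, whose difference (0.0439) lay just below that of Rps18 (0.0445), was left out. Each runs 5′ to 3′ on the gene's strand, from 30 bases before the annotated start to 20 bases after it, from RefSeq on GRCm38.p6, and capitals mark the longest run of at least 6 pyrimidines.
Rpl13a, chr7:45128726-45128775, minus strand: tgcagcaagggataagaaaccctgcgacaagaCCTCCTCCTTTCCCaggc
Rpl35, chr2:39005112-39005161, minus strand: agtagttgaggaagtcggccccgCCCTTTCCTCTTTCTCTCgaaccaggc
Rpl37a, chr1:72711230-72711279, plus strand: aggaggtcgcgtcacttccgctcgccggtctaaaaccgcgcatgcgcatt
Rps28, chr17:33824543-33824592, minus strand: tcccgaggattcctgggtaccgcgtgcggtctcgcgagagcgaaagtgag
Rpl11, chr4:136053374-136053423, minus strand: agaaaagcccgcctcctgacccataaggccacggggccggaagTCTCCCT
Rps18, chr17:33955646-33955695, minus strand: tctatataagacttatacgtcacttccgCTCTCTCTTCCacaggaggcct
Rpl27a, chr7:109519165-109519214, plus strand: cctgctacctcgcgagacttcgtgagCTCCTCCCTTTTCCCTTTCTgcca

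In Rpl35, Rps18 and Rpl27a the run crossed the annotated start, with 18, 11 and 20 pyrimidines. In Rpl13a a run of 14 began at base 3 after the start. Rpl37a, a higher member, and Rps28, a lower one, had no run of 6 in this window.

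Of the 47 members, 41 had a promoter window of 250 bases before to 50 bases after a start in this set. A C followed by at least 5 pyrimidines, searched on the gene's strand from 20 bases before to 50 bases after the start, was found in 33 of the 41 (80.5%), compared with 48.4% of 10163 other expressed genes and 48.5% of all 27025 genes with a window. The motif CCGGAAG, the core of sites for ETS factors such as GABP, was found on either strand of the whole window in 19 of 41 (46.3%), compared with 18.3% of other expressed genes and 9.93% of all genes. AAGATGG, a core of YY1 sites, was found in 19.5%, compared with 8.24% and 7.28%. Its letters include a start codon and it can overlap the previous motif by 3 letters, and neither case was separated. GGGCGG, a core of SP1 sites, was found in 56.1% of members, below the 64.7% of other expressed genes, and TATAAA in 12.2%, compared with 9.80%. A match describes letters only, not a binding site. Among the members with a mean intensity of at least 1000, the median log2 difference was 0.12 in the 14 whose promoters held CCGGAAG and 0.15 in the 15 whose promoters did not. It was 0.13 in the 24 with a pyrimidine tract and 0.14 in the 5 without one.

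**Figure D1:**
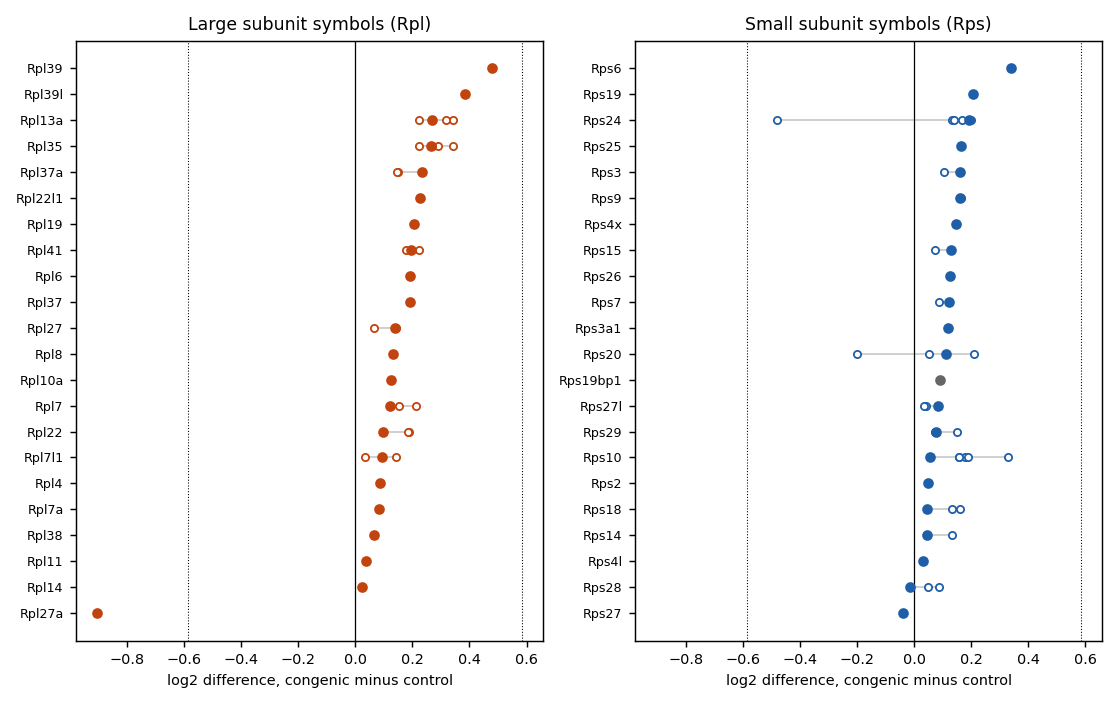
Log2 difference (congenic minus control array) of each expressed member, with large subunit symbols on the left and small subunit symbols on the right, ordered by the brightest probe set (filled points); open points are the other expressed probe sets of the gene, the grey bar joins them, and dotted lines mark 1.5-fold. Rps19bp1, no subunit, is grey. Almost all filled points sit just right of 0, Rpl27a lies alone at -0.90, and the dim outer probe sets of Rps24 and Rps20 lie left of 0.

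The difference varied with signal strength. At a mean intensity of at least 1000 there were 34 members, all between -0.01 and 0.27, and 33 of the 34 were higher in the congenic array. Other expressed genes of this brightness, 1355 in number, had a median of 0.0025 and 50.3% were higher. Between intensities of 4000 and 8000, where most members lie, all 27 members were higher with a median of 0.13, while 64 of 182 other genes were higher and their median was -0.08. Above this, at 8000 or more, the 3 members, Rps2, Rps28 and Rps29, had a median of 0.05 with 2 higher, next to 0.04 for 69 other genes with 48 higher. After removal of a loess trend on intensity, 33 of the 34 bright members were still above 0 with a median of 0.12, and after quantile normalization 31 were, with a median of 0.11. The 10 expressed members below 1000 spread from -0.90 to 0.48. Members share 2 arrays, and many share long stretches of sequence with processed pseudogenes, so they are not independent of each other.

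**Figure D2:**
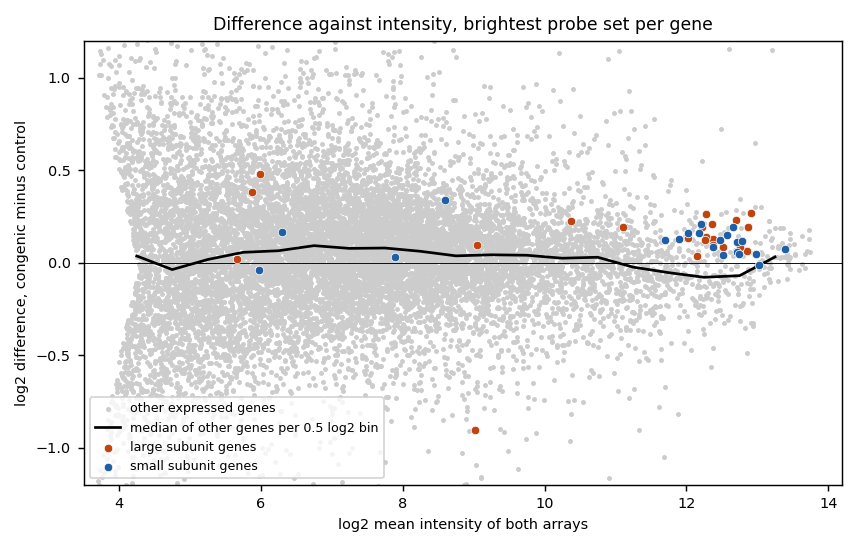
Log2 difference against log2 mean intensity of both arrays, with 1 point for each expressed gene; other genes are grey, large subunit genes red and small subunit genes blue, and the black line is the median of other genes per bin of 0.5. Points beyond 1.2 in either direction are not drawn. Most bright members on the right lie above the black line, which runs below 0 between intensities of about 2000 and 8000 and above 0 beyond, where Rps28 lies below it.

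Large subunit genes led the upper end of the range. Rpl13a, which also serves in a complex that silences inflammatory mRNAs, had an intensity of 8426 on the congenic array and of 6996 on the control array, a log2 difference of 0.27, and all 4 probe sets ranged from 0.22 to 0.34. Rpl35, which sits at the mouth of the exit tunnel, stood at 5405 against 4501 (0.26), with 5 expressed probe sets from 0.22 to 0.34. Every expressed probe set of both genes was therefore above the median of the members. Rpl37a, a zinc-binding protein encoded on chromosome 1, stood at 7174 against 6106 (0.23), with a range of 0.15 to 0.23 over 3 probe sets. The other chromosome 1 member, Rpl7, stood at 5122 against 4712 (0.12), with a range of 0.12 to 0.21. Both chromosome 1 members thus lay inside the range of the members elsewhere. Rpl19, which reaches across to the small subunit, had a difference of 0.21 (5658 against 4901), and Rpl41, the very short peptide at the subunit interface, 0.19 (8020.4 against 7012).

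Several large subunit genes lay below the median of the members by their brightest probe set. Rpl11, which with 5S rRNA can bind Mdm2 and so restrain it from degrading p53, stood at 4622 against 4504 (0.04). Rpl38, needed in the mouse embryo for translation of Hox mRNAs, stood at 7536 against 7209.9 (0.06). Rpl4, which lines a narrow part of the exit tunnel, stood at 6012 against 5666 (0.09). Rpl22, an RNA-binding subunit needed for development of T cells, stood at 5482 against 5129 (0.10), and its other 2 probe sets gave 0.18 and 0.19. All 4 were still slightly higher with the congenic RNA.

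At a mean intensity of at least 1000, small subunit genes ran from -0.01 to 0.21 and large subunit genes from 0.04 to 0.27. With dim genes included, the small subunit ran from -0.04 to 0.34 and the large one from -0.90 to 0.48. Rps19, whose human counterpart is mutated in Diamond-Blackfan anaemia, stood at 5044 against 4369.9 (0.21), the highest of the bright small subunit genes. Rps24, another gene of that disease in humans, stood at 6900.2 against 6037 (0.19). Rps26, which lies beside the mRNA where it leaves the small subunit, stood at 3455 against 3169 (0.12). At the lower end, Rps28, at the same exit, stood at 8284 against 8363 (-0.01), although its other 2 probe sets were at 0.05 and 0.09 and median centring turned its sign (0.0087). Rps14, a gene of the human 5q deletion syndrome, stood at 5931 against 5753 (0.04), Rps18, a protein of the small subunit head, at 6973 against 6761 (0.04) and Rps2, near the mRNA entry, at 8198 against 7929.9 (0.05). The signs of Rps18 and of the dim Rpl14 and Rps4l turned after quantile normalization, and that of Rps4l also after loess.

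Both subunits were higher in the congenic array, the large one by slightly more. The median log2 difference was 0.14 over 22 expressed large subunit genes and 0.12 over 21 small subunit genes, a gap of 0.02. With every expressed probe set counted, the medians were 0.18 over 41 and 0.12 over 47 probe sets, a gap of 0.06. Probe sets of 1 gene are not separate units, and genes with many weigh more here. Rpl35 gave 5 of the 41 and Rpl13a 4, all from 0.22 to 0.34. With 1 value per gene, the mean of its expressed probe sets, the gap was 0.05. For probe sets with a mean intensity of at least 1000 they were 0.19 over 30 and 0.13 over 37. Probe sets of the same member, at this brightness, differed from each other with an SD of 0.05 (18 genes, 51 probe sets), while the means of these 18 genes differed with an SD of 0.06. The gap between the subunits was not tested. In 17 of the 18 genes all bright probe sets lay on the same side of 0. The SD within other genes at or above 1000 was 0.09 (332 genes). The 2 sets are not matched in brightness. Of the 1355 other expressed genes at or above 1000, 697 lie below 2000, as does 1 of the 34 members. Probe sets of a gene may also bind overlapping stretches of the same transcript, which was not examined. Whether ribosomal protein probe sets repeat each other more closely was therefore not tested.

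A further 109 probe sets carried the symbol of a ribosomal protein together with other symbols, mostly those of pseudogenes or predicted genes, and 28 ribosomal protein symbols were met in these alone. They are described as a group, since their signal cannot be assigned to 1 gene. Of the 100 that were expressed, 95 were higher in the congenic array, with a median of 0.17. Of the 82 joint probe sets of at least 1000, 81 were higher, compared with 50.1% of 2063 other bright probe sets of the array (median 0.0012). Among these 82, the median was 0.18 over 56 large subunit and 0.15 over 26 small subunit probe sets. The large subunit was again higher, by a gap of 0.04 that was not tested.

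**Figure D3:**
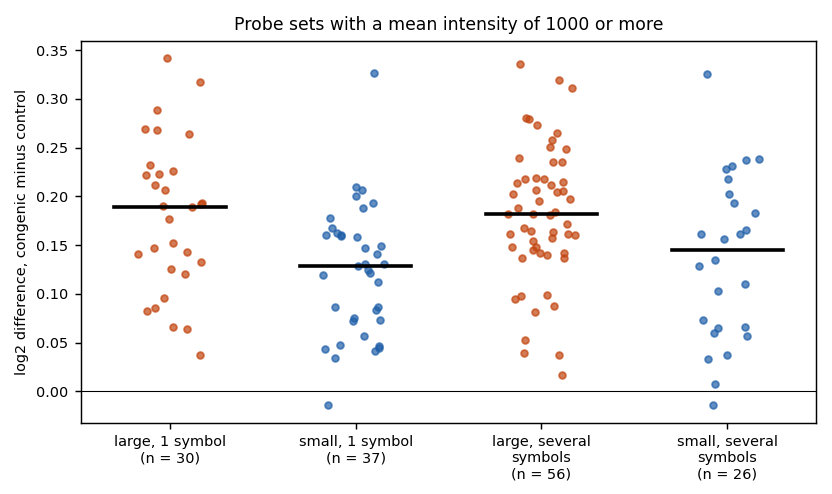
Log2 difference of each ribosomal protein probe set with a mean intensity of 1000 or more, split by subunit and by whether the annotation gives 1 symbol or several; black bars are medians and sideways scatter is only for legibility. All but 1 point of each small subunit column and every point of the large subunit columns lie above 0, and the columns overlap widely.

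Groupings by structure gave small gaps. In the small subunit, 9 expressed genes of the head had a median of 0.11 and 10 of the body 0.12. Subunits with a bacterial homologue had a median of 0.12 over 16 genes, and those without one 0.14 over 22. Within the large subunit these medians were 0.12 over 8 and 0.19 over 11 genes, and within the small subunit 0.09 over 8 and 0.12 over 11. The proteins that bacteria lack thus had the higher median in either subunit, by 0.07 in the large and 0.03 in the small.

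Paralogs of subunit genes lay in the same range as the subunits, and all 5 expressed ones were higher in the congenic array, against 56.1% of all expressed genes. Rpl22l1, the paralog of Rpl22, stood at 1426 against 1219 (0.23). Rps27l, a p53 target close in sequence to Rps27, stood at 5470.3 against 5161 (0.08) with 3 probe sets between 0.03 and 0.08, while the 1 dim probe set of Rps27 gave 61.7 against 63.5 (-0.04). Whether the bright Rps27l probe sets also bind Rps27 transcripts was not examined. Rpl39l, a paralog known from testis, stood at 67.4 against 50.4 (0.38), close to Rpl39, which lines the exit tunnel, at 75.1 against 52.4 (0.48). Both values for this pair come from dim probe sets and shrank to 0.31 and 0.39 with a pseudocount of 20. Rpl7l1 stood at 548 against 513 (0.09), beside 0.12 for Rpl7, and Rps4l at 239 against 234 (0.03), beside 0.15 for Rps4x at 6387 against 5769. Rpl3l, a paralog known from striated muscle, was not expressed, at 2.63 and 1.39. Rps19bp1, which is no subunit, stood at 261 against 245 (0.09).

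Members read from dim probe sets gave the values farthest from the rest. Rpl27a, a large subunit protein near the peptidyl transferase centre, stood at 359 against 675 (-0.90), and its only other probe set of a single symbol was below the median of both arrays at 4.36 against 1. Rps6, the substrate of S6 kinases, stood at 434 against 342 (0.34), and its second probe set, also below both medians, went the other way at 11.3 against 19.2 (-0.57). Rpl14, Rpl27a, Rpl39, Rps6, Rps25 and Rps27 are the expressed structural subunits that had no probe set of a single symbol at or above 1000. Rps25 stood at 83.6 against 74.1 (0.16) and Rpl14 at 51.2 against 50.4 (0.02). Rpl12 and Rps16 had 1 single-symbol probe set each and were not expressed, at 14.5 against 16.01 and 2.22 against 4.97. Whether these dim probe sets read the mature transcript, an intron or an alternative end is not known from the files.

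Probe sets of a gene could differ widely in brightness. Of the 102 probe sets, 67 had a mean of at least 1000, 22 were expressed below that and 13 lay below the median of both arrays. Rps24 had 4 bright probe sets between 0.14 and 0.20, and 2 dim ones at 0.13 and -0.48, the latter at 13.2 against 20.4. Rps20 had 2 bright ones at 0.11 and 0.21 and 2 dim ones at 0.05 and -0.20. In both genes the scatter came from the dim probe sets. Rps10 was different, since 5 bright probe sets ran from 0.06 to 0.33, the widest spread at high signal. The ending of the probe set name marks whether a probe set may bind more than 1 transcript. By this ending, bright probe sets had medians of 0.16 for _at (4 probe sets), 0.14 for _a_at (25), 0.13 for _s_at (2) and 0.15 for _x_at (36). These medians were close, but only 4 _at probe sets were bright. Over all expressed probe sets, the 21 ending in _at had a median of 0.11, from -0.90 to 0.48 with 4 below 0. The 38 ending in _x_at had a median of 0.15, all above 0.

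Other genes of the translation apparatus were compared with the members. For scale, 56.1% of all expressed genes were higher in the congenic array, and by 1.5-fold or more 7.59% were higher and 5.26% lower. The 4 expressed subunits that the symbol pattern misses, Rplp0, Rplp2, Fau and Rpsa, were all higher, with a median of 0.15 and a range of 0.13 to 0.18. Other mRNAs with a TOP tract had a median of 0.13 over 15 genes, 14 of them higher, from Eef1a1, the main elongation factor, at -0.00089 (11032 against 11039) to Nap1l1, a histone chaperone, at 0.25 (622 against 521). Of these 15, 9 also stand in the lists of initiation, elongation or assembly factors, and the 6 that do not had a median of 0.11, all higher. Both groups lay close to the members, and none of their genes reached 1.5-fold.

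By 1.5-fold or more, 7.59% of all expressed genes were higher and 5.26% lower. Initiation factors had a median of 0.02 over 36 genes, with 20 higher and 16 lower and none past 1.5-fold. Their extremes were Eif4a2, an RNA helicase that unwinds mRNA leaders, at -0.31 (2102 against 2612) and Eif2b2, a subunit of the exchange factor for initiation factor eIF2, at 0.25 (305 against 255). Elongation and release factors had a median of 0.06 over 9, from Eef2k, which inhibits elongation, at -0.43 (51.6 against 71.4) to Eef1b2 at 0.18 (4245 against 3742). Mitochondrial ribosomal proteins, which serve a separate ribosome, had a median of 0.03 over 76 genes, of which 50 were higher, from Mrpl37 at -0.28 to Mrps11 at 0.37. These 3 lists lay near the median of all genes, and the sign of each list's median turned under at least 1 alternative.

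Genes of ribosome assembly and of RNA polymerase I each had an SD of 0.20, against 0.19 over all members and 0.43 over all expressed genes. Most genes of both lists have a mean intensity below 1000. The members had an SD of 0.07 at or above that intensity and of 0.38 below it. By 1.5-fold or more, 7.59% of all expressed genes were higher and 5.26% lower. Ribosome assembly factors had a median of 0.13 over 42 genes, with 26 higher, 16 lower and none past 1.5-fold, from Rpf2, which brings 5S rRNA to the large subunit, at -0.40 (562 against 745) to Wdr75, a factor of early small subunit assembly, at 0.42 (197 against 146). RNA polymerase I and its factors had a median of 0.20 over 15 genes, 14 of them higher, against 56.1% of all expressed genes. Polr1e, a polymerase subunit, was past 1.5-fold at 0.60 (44.0 against 27.4), and Polr1b was lowest at -0.19 (90.0 against 103). The mTOR and S6 kinase list had a median of 0.10 over 11 genes, from Pdcd4, an inhibitor of the helicase Eif4a, at -0.22 (771 against 900.1) to Rps6kb2, an S6 kinase, at 0.67 (46.3 against 27.2), the only 1 of the list past 1.5-fold.

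**Figure D4:**
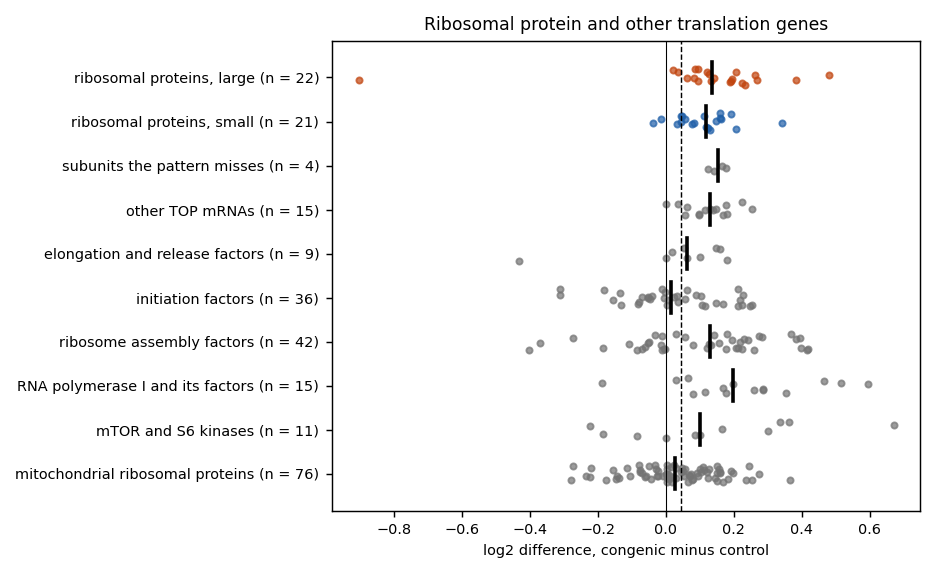
Log2 difference of each expressed gene of the ribosomal protein groups and of 8 other translation lists; 1 point is 1 gene, black bars are medians, the solid line is 0 and the dashed line is the median of all expressed genes, 0.04. The subunits the pattern misses and the other TOP mRNAs overlap the ribosomal proteins, while initiation factors and mitochondrial ribosomal proteins centre near the dashed line.

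Markers of several other cell types were also higher in the congenic array. All 10 Kupffer cell and macrophage markers were higher in the congenic array, with a summed intensity of 27022 against 17349.7, as were the 7 neutrophil markers (3963 against 1249). So were the 5 expressed B and plasma cell markers, where the sum over all 6 listed was 1100.1 against 274. Of 6 expressed T and NK cell markers 5 were higher, and the sum over all 7 listed was 293 against 202. Across all expressed genes 56.1% were higher. Stellate cell markers were higher in 4 of 5 (6255 against 5227), among them the collagen gene Col1a1 by 1.12, and endothelial markers in 4 of 5 (2117 against 1929.5), with Lyve1 at -0.64. Of 3 erythroid markers 1 was higher (269.7 against 228). Of the 7 hepatocyte markers 6 were higher and Hnf4a lower (-0.26), all within 1.5-fold, with a sum of 72788 against 69277. None of these markers was listed at 0, and Cd3e, a T cell receptor component, and Cd79a, a B cell receptor component, were below the median of both arrays. In whole liver, a different share of cells and a different amount of RNA per cell cannot be told apart, and the part of these cells in the ribosomal protein difference was not tested. The array medians were 19.3 and 19.7, and the 18 hybridisation controls had a median log2 difference of -0.10, from -0.19 to 0.05, opposite in sign to the members.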

How the data were processed

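The deposited table gives linear intensities of 45101 probe sets on both arrays. Per the labels' protocols, biotinylated cRNA was made from total liver RNA. The authors' probe summary and array scaling are not stated in the labels, so intensities were used as deposited; log2 array medians differed by -0.02, below the limit of 0.1 for rescaling. A platform annotation gave 1 symbol to 34945 probe sets and several to 932, with chromosomes from GRCm38.p6 through gene IDs (47 of 47 members matched). Differences are log2(intensity + 5), each gene by its brightest probe set; folds on this scale understate dim genes. Expression required the 50th percentile on at least 1 array. Named genes are every member past 1.5-fold, the 8 highest and 8 lowest structural members, chromosome 1 members, paralogs and parents, the 4 widest probe set ranges, 10 genes fixed by role of which 7 had a single-symbol probe set, and the extremes of other lists. Rpl4, Rpl12, Rpl38, Rps16, Rps25 and the intensity limit of 1000 were chosen after values were seen. Members and lists were chosen with earlier results of these data known. Code was tested on simulated data (Python 3.11.15, pandas 2.3.3, statsmodels 0.14.6). The number of arrays limits precision.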

Additional observations from a re-analysis of the deposited data

How the results depend on the processing

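The median difference of the ribosomal protein genes stayed between 0.11 and 0.16, that of the large subunit between 0.12 and 0.18, of the small subunit between 0.08 and 0.14, and the gap between them between 0.01 and 0.06 on the side of the large subunit, under all 17 alternatives, 2 of which (joint probe sets included, and a mean intensity of at least 1000) were chosen after seeing the data. The number of members below 0, 3 of 44, was 6 after quantile normalization, 5 without a filter, 5 over every expressed probe set, 10 with joint probe sets included and 1 at an intensity of at least 1000; fewer or more units were counted in the last 4. No member was higher by 1.5-fold; 3 were at the lower of the alternative fold limits, and 2 probe sets were by 1.5-fold with joint ones included. The 1 lower by 1.5-fold became 0 at 2-fold, with the median of all probe sets (Rpl27a then at -0.13) and at an intensity of at least 1000. Elongation and release factors turned from 0.06 to -0.00089 with the median of all probe sets, and the mTOR list moved from 0.10 to 0.20 with the mean of expressed probe sets; the cause was not tested. The median of initiation factors (0.02) fell below 0, to between -0.0072 and -0.00043, under 4 alternatives, and that of mitochondrial ribosomal proteins (0.03) to -0.00071 after quantile normalization and -0.0038 after loess. No paired analysis was possible because each group has 1 array.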
